A study of Homo sapiens with 19 samples.

Results

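The genes described are the enzymes that write and remove DNA methylation, followed in the human embryonic stem cell (hESC) line KhES-3 during the first 3 days of a protocol that directs the cells toward brown adipocytes (BAs). They were taken as a fixed list of 9 symbols: DNMT1, UHRF1, DNMT3A, DNMT3B, DNMT3L, TET1, TET2, TET3 and TDG. Of the 9 genes, 8 had at least 1 probe on the array, 17 probes in all, among 50683 probes and 20499 named genes, and no probe was matched to TET3. All 17 probes were bright enough on at least 5 arrays to be tested, together with 32113 probes of 16692 genes in all. RNA of 1 sample was hybridized at each of 19 time points from 3 to 72 h after induction, so there are no replicates, and an uninduced sample was not analysed here. Every sample was the same line in the same serum-free BA medium, in a low-attachment dish with IGF-II, BMP4, VEGFA, KITLG, FLT3LG and IL-6. The labels describe stem cells kept on irradiated mouse feeder cells, whereas the methods describe a feeder-free system. The arrays lay on 3 slides: 6 arrays from 3 to 12 h, 8 from 14 to 42 h and 5 from 48 to 72 h, the last slide scanned on a later day. A change between these spans therefore cannot be told apart from a difference between slides.

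A methyl group on the cytosine of a CpG is copied to the new strand after DNA replication by DNMT1, which UHRF1 brings to the half-methylated site. DNMT3A and DNMT3B place methyl groups on unmethylated CpGs, and DNMT3L, which has no catalytic activity, stimulates them. The TET dioxygenases oxidize the methyl group step by step, and TDG, a thymine DNA glycosylase, cuts out the most oxidized bases so that base excision repair can restore a plain cytosine. Human ES cells are known for abundant DNMT3B and TET1 and for methylation outside CpGs, which is lost on differentiation.

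The promoters of the 2 maintenance genes are shown because they were the ones in which a binding word of the E2F factors, regulators of S phase genes, was found. The search covered 19 RefSeq windows of the listed genes in GRCh38.p14, each reaching from 250 bases before to 50 bases after a transcription start, with none for DNMT3L. The E2F words searched on both strands were TTTCCCGC, TTTCGCGC, TTTGCCGC and TTTGGCGC, which do not overlap a second motif searched, the octamer ATGCAAAT of the POU factors. An E2F word occurred in 3 of the 19 windows, 1 of DNMT1 and 2 of UHRF1, against 3.31% of all 35116 windows. The octamer occurred in 0 of the 19 windows, against 1.77% of all windows. The 200 bases shown for each of these 3 windows run from 170 bases before to 30 bases after the start, 5′ to 3′ on the gene's strand, with the E2F word in capitals. The first lies at chr19:10194924-10195123 on the minus strand, and the other 2 at chr19:4909331-4909530 and chr19:4909974-4910173 on the plus strand. A further UHRF1 window, at a start beyond the one called downstream here, held 46 CpGs and 0 E2F words and is not shown.
DNMT1: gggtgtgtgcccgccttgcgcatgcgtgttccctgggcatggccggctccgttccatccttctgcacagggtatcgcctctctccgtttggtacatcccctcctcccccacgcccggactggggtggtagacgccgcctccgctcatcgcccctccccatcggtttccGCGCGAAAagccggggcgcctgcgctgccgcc
UHRF1 upstream start: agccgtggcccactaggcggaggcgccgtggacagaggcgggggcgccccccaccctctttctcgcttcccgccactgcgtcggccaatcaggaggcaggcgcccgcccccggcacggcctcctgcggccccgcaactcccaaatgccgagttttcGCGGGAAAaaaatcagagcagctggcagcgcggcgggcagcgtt
UHRF1 downstream start: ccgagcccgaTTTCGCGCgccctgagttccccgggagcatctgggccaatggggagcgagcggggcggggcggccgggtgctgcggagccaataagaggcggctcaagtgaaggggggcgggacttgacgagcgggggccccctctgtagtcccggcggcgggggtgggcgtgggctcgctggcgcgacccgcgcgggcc
In DNMT1 the word TTTCGCGC lies on the opposite strand and begins, as printed, 2 bases before the start, in a window with 30 CpGs against a median of 14 over all windows. In UHRF1 the word TTTCCCGC lies on the opposite strand and begins 14 bases before the upstream start, and TTTCGCGC lies on the gene's strand 160 bases before the downstream start, in windows of 36 and 40 CpGs. These are matches of letters and not measurements of binding.

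The signal of a probe is given as the processed intensity brought to a common 75th percentile of the arrays, and changes are given on the log2 scale. Each probe was fitted with a straight line in hours by limma, and a slope with an adjusted p under 0.05 was called. The late minus early difference subtracts the mean log2 signal of an early window (3, 4 and 6 h) from that of a late window (60, 66 and 72 h). It carries no test, since these windows hold different time points. The share of probes well above background ran from 49.6% at 14 h to 64.7% at 54 h. Over all genes tested, 24.6% rose and 29.8% fell, the median late minus early difference being -0.05. With the slide as a block these shares were 4.12% and 5.97%. The split depended on the scaling: 9927 probes rose and 7207 fell with the 75th percentile, against 4678 and 11117 with the array median, and 1485 and 11188 with spike-in RNA. In a culture, fewer cells of a type and less RNA per cell cannot be told apart.

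Of the enzymes, 5 fell, 1 rose and 2 did not pass. The 5 that fell were DNMT1, UHRF1, DNMT3A, DNMT3B and TDG, 5 of 8 genes where 29.8% of all genes fell. The riser was TET2, 1 of 8 where 24.6% of all genes rose. DNMT3L and TET1 were the 2 whose slope did not pass. With the slide as a block, DNMT3A, DNMT3B and TDG remained called, 3 of 8 against 5.97% of all genes, and 0 rose. The median late minus early difference over all genes tested was -0.05, against differences of these 8 genes from -1.34 for UHRF1 to 0.55 for TET2. The representing probe of each of the 8 stood well above background at every time point.

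**Figure D1:**
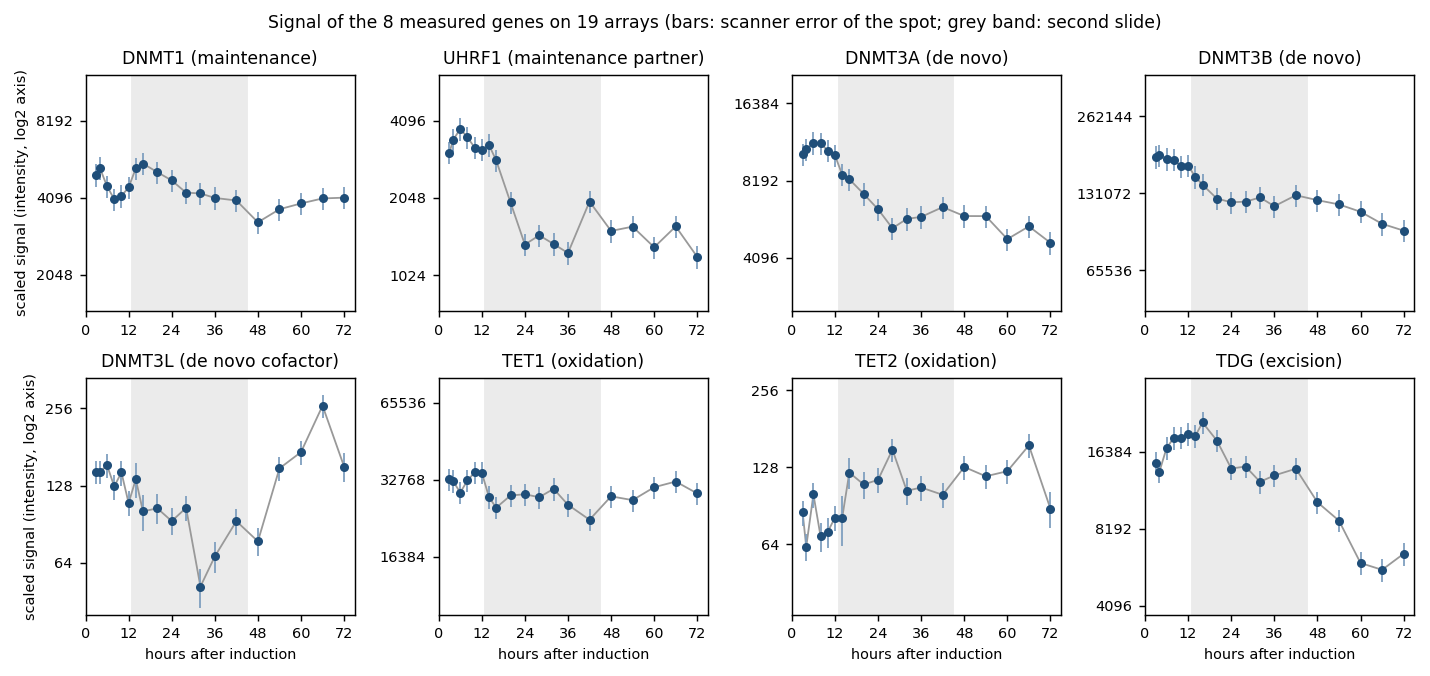
Each panel plots the scaled signal (log2 axis, intensity) of 1 gene's representing probe against hours after induction, 1 point per array, with bars for the scanner's error of the spot and a grey band over the arrays of the second slide (14 to 42 h). UHRF1 drops from 3297 at 14 h to 1347 at 24 h inside the second slide, TDG peaks at 21311 at 16 h and lies between 5663 and 6541 from 60 to 72 h, and TET1 stays between 22889 and 35010.4 throughout.

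DNMT1, the maintenance methyltransferase (chromosome 19, 10133346 to 10194953, GRCh38.p14), changed least among the genes that fell. Its single probe, A_33_P3329187, read 5025, 5344 and 4535 at 3, 4 and 6 h, dipped to 4035 at 8 h and climbed to its highest value, 5561, at 16 h. It then declined to 3991 at 42 h and to its lowest, 3281, at 48 h, before reading 3886, 4065 and 4093 at 60, 66 and 72 h. The late values thus lie on both sides of that at 8 h. The 1.23-fold fall between the windows (log2 -0.30) went with a slope of -0.00588 ± 0.00178 per hour (SE, limma adjusted p = 0.00957), which the slide block left at -0.00869 (adjusted p = 0.262). Of the 18 gaps between neighbouring values in the order of signal, 0 exceeded the combined scanner error of the 2 spots, so no neighbouring pair of levels is set apart. Steps of 0.25 from 12 to 14 h and -0.28 from 42 to 48 h fell on the slide borders. With normexp and quantile normalization the slope was -0.00144 (adjusted p = 0.533).

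UHRF1, which recognizes half-methylated DNA and recruits DNMT1 (chromosome 19, 4903080 to 4962154), fell mainly between 14 and 24 h. Probe A_23_P208880 read from 3081 to 3808 on the 6 arrays of the first slide (median 3332), and still 3297 at 14 h. It then fell to 2873 at 16 h, 1966 at 20 h and 1347 at 24 h, all on the second slide. From 24 h on it ranged from 1205 at 72 h to 1982 at 42 h, so that every value from 20 h lay below every value to 16 h. The fall between the windows was 2.53-fold (log2 -1.34), with a slope of -0.0225 ± 0.00378 per hour (limma adjusted p = 6.75e-05). The slope was as large in the fit with a slide block, -0.0252 ± 0.00898, but did not pass (adjusted p = 0.0866). The curve departed from a line in hours (adjusted p of the bend 0.0223), as it did for 47.8% of all probes. The second UHRF1 probe, A_33_P3379454, read 467 at 14 h and 177 at 24 h, and fell 3.29-fold between the windows. The 2 probes gave the same order of events, with all values to 16 h above all later ones.

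DNMT1 and UHRF1, although partners, did not run together. Their log2 difference on the same array, which does not depend on the scaling, rose by 0.0166 ± 0.00432 per hour (permutation p = 0.00137, adjusted p = 0.00274 over 6 pairs of genes, 19 arrays). With the slide removed it rose by 0.0165, a value that was not tested. At 24 h DNMT1 stood at 4779.9, within its first-slide range of 4035 to 5344, while UHRF1, at 1347, was below its own.

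DNMT3A and DNMT3B, the de novo methyltransferases, both fell and were both called also with the slide as a block. DNMT3A (chromosome 2, 25227874 to 25342590; probe A_23_P154500) read from 10274 to 11473 on the first slide, then 8647 at 14 h, 7261 at 20 h and 5334 at 28 h. It returned to 6451 at 42 h and was lowest at 72 h, with 4679. The ranges of the first slide and of the other 2 slides did not overlap, and the step from 12 to 14 h was -0.25 against a decline from 8647 to 5334 between 14 and 28 h within the second slide. The fall was 2.19-fold (log2 -1.13), with a slope of -0.0181 ± 0.00229 per hour (limma adjusted p = 2.9e-06; with the slide block -0.0161, adjusted p = 0.0286). The other 2 probes, A_33_P3272330 and the dimmer A_23_P420373, which the files assign to another RefSeq transcript of the gene, fell 2.09-fold and 2.03-fold. Neither of these passed with the slide block (adjusted p = 0.523 and 0.18).

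DNMT3B (chromosome 20, 32762385 to 32809356; probe A_23_P28953) held its highest values at 3 and 4 h, 181798 and 184419. It read 167941 at 12 h, 151701 at 14 h and 124906 at 20 h. Between 20 and 54 h it lay on a plateau from 116630.0 to 128715, and it then declined to 110938, 99567 and 93639.6 at 60, 66 and 72 h. In the order of signal, 0 of its 18 gaps between neighbouring levels exceeded the combined scanner error of the 2 spots. These gaps do not test the steps between hours. The fall was 1.79-fold (log2 -0.84), with a slope of -0.0125 ± 0.00151 per hour (limma adjusted p = 1.78e-06; with the slide block -0.0116, adjusted p = 0.0242). The slopes within the 3 slides were all negative, -0.0158, -0.00815 and -0.0174. By these probes, DNMT3B fell less steeply than DNMT3A, by 0.00563 ± 0.00144 per hour (permutation adjusted p = 0.00274). It fell more steeply than DNMT1, the difference being -0.00662 ± 0.0026 (permutation adjusted p = 0.0213). With the slide removed the differences were 0.00454 and -0.00289. Each gene stood by 1 probe, and 4 of 14 pairs of probes of one gene also differed, such as by 0.00589 for UHRF1 and -0.00804 for TET1. None of the 3 DNMT3A pairs did. Whether the differences belong to the gene or to the probe was not tested.

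DNMT3L, the cofactor without catalytic activity (chromosome 21, 44246339 to 44261897; probe A_23_P17673), first fell and then rose. It was dim, reading from 109 to 154 on the first slide, and sank to 51.6 at 32 h and 67.6 at 36 h. From 149 at 54 h it climbed to a peak of 262 at 66 h and returned to 152 at 72 h, within its first-slide range. The line in hours therefore did not pass (slope 0.00369 ± 0.00547, limma adjusted p = 0.59), whereas a cubic curve did (adjusted p = 0.00176), as for 76.8% of all probes. Of its 18 gaps between neighbouring levels 3 exceeded the scanner error, whose median was 11.4% of the signal. Its late minus early difference, 0.37, depended on the scaling: it was -0.00351 with the array median, -0.28 with spike-in RNA and -0.03 with normexp. It also depended on single arrays, being 0.13 without the 66 h array and 0.07 for 72 h minus 3 h. Against DNMT3B on the same arrays it gained 0.0162 ± 0.00534 per hour (permutation adjusted p = 0.00943), and 0.00825 with the slide removed.

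TET1, the dioxygenase typical of ES cells (chromosome 10, 68560337 to 68694487), showed no called trend by its brightest probe. A_33_P3295550 read from 29217 to 35010.4 on the first slide, from 22889 to 30228 on the second and from 27308 to 32277 on the third. The 3 ranges overlapped, and 0 of 18 gaps between neighbouring levels exceeded the scanner error. The slope was -0.00215 ± 0.00175 per hour (limma adjusted p = 0.31). It passed as a fall with the array median (-0.00742, adjusted p = 0.0204), with spike-in RNA (-0.0106, adjusted p = 0.00941) and over the arrays from 3 to 54 h (-0.00658, adjusted p = 0.0265). Relative to the median of all genes the late minus early difference was 0.01.

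TET2 (chromosome 4, 105145875 to 105279803), a dioxygenase better known from blood cells, was the 1 gene that rose, from a low signal. Probe A_23_P350187 ranged from 62.7 at 4 h to 100.4 at 6 h on the first slide and read 81.1 at 14 h. At 16 h it stood at 122, and from then on it lay between 100.0 and 156, except for 88.2 at 72 h. The rise was 1.47-fold (log2 0.55), with a slope of 0.00967 ± 0.00317 per hour (limma adjusted p = 0.0152). It rested on the comparison between slides and on the 66 h array: with the slide block the slope was -0.00254 (adjusted p = 0.877), and without 66 h it was 0.00823 (adjusted p = 0.0543). With the array median, spike-in RNA and normexp the adjusted p was 0.225, 0.879 and 0.112, and with spike-in RNA the late minus early difference was -0.09. That difference was 0.36 without the 66 h array, 0.37 without the 4 h array, 0.05 for 72 h minus 3 h and 1.11 as the mean of the gene's probes. Against TET2 on the same arrays TET1 changed by -0.0118 ± 0.00412 per hour (permutation adjusted p = 0.0137), but with the slide removed the difference turned to 0.00173.

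TDG, the glycosylase that removes oxidized methylcytosine (chromosome 12, 103965872 to 103988874), first rose and then fell. Probe A_23_P204579 read 14787 and 13688 at 3 and 4 h, 19229.5 at 12 h and 21311 at 16 h. By 24 h it was back at 14084, and it stayed between 12498 and 14334 to 42 h. On the third slide it went from 10397 at 48 h to 8809 at 54 h and to 6022, 5663 and 6541 at 60, 66 and 72 h, all below every earlier value. The fall between the windows was 2.49-fold (log2 -1.31), with a slope of -0.0236 ± 0.00284 per hour (limma adjusted p = 1.67e-06; with the slide block -0.0222, adjusted p = 0.0462). The bend beyond a line also passed (adjusted p = 0.00318). Within the slides the slope was 0.0519 on the first, -0.0232 on the second and -0.0329 on the third. Against TET1 on the same arrays TDG changed by -0.0215 ± 0.00416 per hour (permutation adjusted p = 0.00048), and by -0.0214 with the slide removed.

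Several genes had more than 1 probe, and the 14 pairs of such probes were compared on the same arrays by permutation. In 4 pairs the slopes differed at an adjusted p under 0.05, and in 10 they did not pass. The disagreement mattered most for TET1. Its other 2 probes, A_19_P00806490 and A_23_P322756, are assigned to the same RefSeq transcript as the brightest and correlated with each other at 0.883 over the 19 arrays, but with the brightest probe at 0.289 and 0.0921. They rose, with slopes of 0.00569 (limma adjusted p = 0.022) and 0.00589 (adjusted p = 0.0481), the former from 7978 in the early window to 9769 in the late one. Neither passed with the slide block (limma adjusted p = 0.663 and 0.909). Their steps at the slide border from 42 to 48 h, 0.48 and 0.54, exceeded their late minus early differences of 0.29 and 0.20. Against them the brightest probe changed by -0.00784 ± 0.00163 and -0.00804 ± 0.00251 per hour (permutation adjusted p = 0.00322 and 0.0201). With the slide removed these differences were -0.00498 and -0.0024. Whether a slope was called for TET1 thus depends on the probe, and with the slide block no TET1 probe was called.

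The other 2 pairs that differed ran in the same direction. The brighter UHRF1 probe fell less steeply than the dimmer, by 0.00589 ± 0.00148 per hour (permutation adjusted p = 0.00443), and the brighter TDG probe more steeply, the difference being -0.00789 ± 0.0019 (permutation adjusted p = 0.00443). With the slide removed both differences shrank and changed sign, to -0.000383 for UHRF1 and 0.000536 for TDG. A_33_P3357445, the dimmer TDG probe, read 537 at 16 h and 171 at 72 h and fell 1.90-fold between the windows. It did not pass with the slide block (limma adjusted p = 0.0517). Both TDG probes peaked at 16 h, on an array with 52.0% of probes well above background, on which DNMT1 also read highest. None of the 3 pairs of DNMT3A probes passed (permutation adjusted p from 0.615 to 0.905). The 4 TET2 probes correlated at 0.284 to 0.622, and 2 of them were well above background on only 12 and 8 of the 19 arrays. Of these 4, A_33_P3266719, the probe with 8 such arrays, was also called as rising. Its slope was fitted partly through values below background, so that its p is not given. The remaining 2 did not pass (adjusted p = 0.0692 and 0.0714). Counted by probe, 9 of 17 fell and 4 rose, A_33_P3266719 included, where 22.4% and 30.9% of all probes did. With the slide block 3 fell and 0 rose, against 4.47% and 4.71% of all probes.

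**Figure D2:**
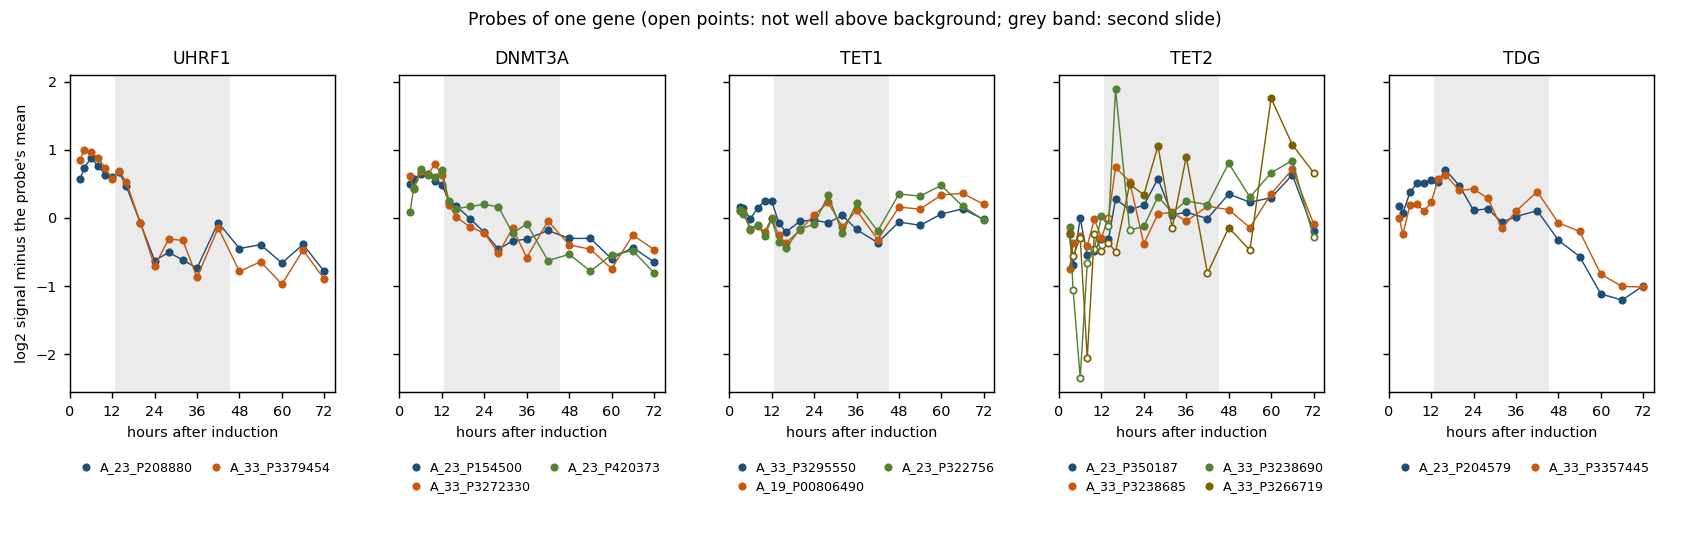
Each panel plots, for 1 gene with more than 1 probe, the log2 signal of every probe minus that probe's mean over the 19 arrays against hours after induction. Open points mark arrays on which the probe was not well above background, and the grey band marks the second slide. The UHRF1, DNMT3A and TDG probes descend together, whereas the 2 dimmer TET1 probes lie above the brightest one from 48 to 66 h, and the dim TET2 probes scatter widely.

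As a description over the 19 arrays, which share slides and scaling, the time courses of UHRF1, DNMT3A and DNMT3B resembled each other closely. Pearson's r was 0.962 between DNMT3A and DNMT3B, 0.958 between UHRF1 and DNMT3A, and 0.916 between UHRF1 and DNMT3B. TDG correlated with these 3 at 0.683 to 0.737, DNMT1 at 0.446 to 0.514, and TET2 at -0.66 to -0.721. Between TDG and TET1 it was -0.00670.

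Among 13966 genes well above background on all arrays, other genes tracked the enzymes even more closely. The nearest to UHRF1 was PPP1R17 (r = 0.985), followed by PUF60, a splicing factor, and CDK6, a kinase of the G1 phase (r = 0.98 and 0.977). For DNMT3A they were SMO, the Hedgehog signal transducer, TCEAL8 and TRIM54 (r from 0.98 to 0.986). For DNMT3B they were AACS, the splicing factor SRSF3 and PIERCE1 (r from 0.978 to 0.983). TDG ran with PSMD12, a proteasome subunit, ALG5 and ZNF618 (r from 0.981 to 0.982). DNMT1 came closest to SAFB, TRAFD1 and the lamin gene LMNB2 (r from 0.861 to 0.922), and TET1 to CLNS1A, YBX2 and RPS24 (r from 0.889 to 0.902). DNMT3L was followed most closely by CCKBR at 0.931, then FLRT3 and KLHL9 (r = 0.87 and 0.853). TET2 had the loosest neighbours, KLF4, a factor used in reprogramming, LINC01106 and ALDH1A1 (r from 0.831 to 0.867).

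The size of every change depended on how the arrays were brought to a common scale. Against the 75th percentile, the array median lowered all late minus early differences by 0.37 and spike-in RNA by 0.645, so that differences between genes were kept. UHRF1, TDG, DNMT3A and DNMT3B fell under every scaling: the log2 difference ranged from -1.13 to -1.98 for UHRF1, from -1.04 to -1.96 for TDG, from -0.88 to -1.78 for DNMT3A and from -0.84 to -1.49 for DNMT3B. Less the median of all genes, their differences were -1.29, -1.26, -1.08 and -0.79 under the 3 scalings by 1 factor per array. On the same footing the difference was -0.25 for DNMT1, 0.42 for DNMT3L and 0.60 for TET2.

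Genes that supply, guide or follow these enzymes were taken as lists. Their counts are to be read against the 29.8% of all genes that fell and the 24.6% that rose. Over all 32113 probes tested, 4678 rose and 11117 fell with the array median, and 1485 and 11188 with spike-in RNA. Of 20 S phase genes, 18 fell and 0 rose, with a median difference of -0.95, and 14 fell with the slide block. RRM2, which encodes a subunit of ribonucleotide reductase, fell by 2.17 on the log2 scale (from 2052 to 454), and POLA1, the primase-bound polymerase subunit, fell by 1.26. All 20 fell with the array median and with spike-in RNA. Their summed signal was 369943 to 397115 in the early window and 200255 to 218236 in the late one. Their part in the fall of the methylation enzymes was not tested.

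Among 14 maintenance partners, 6 fell and 2 rose (median -0.43). DPPA3, an oocyte and germ cell factor that keeps UHRF1 from chromatin, fell by 1.23, from 341 to 145. PCNA, the replication clamp that DNMT1 binds, fell from 22072 to 10444, and TRIM28, the corepressor of zinc finger proteins at imprinted regions, from 35341 to 22262. ZNF445 (0.31) and the remodeler HELLS (0.24) rose slightly with the 75th percentile, and 0 of the 14 rose with the array median or spike-in RNA. With the slide block 1 of the 14 was called, CDCA7, the partner of HELLS, which fell (adjusted p = 0.0476).

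S-adenosylmethionine, the methyl donor, is made by the MAT enzymes. MAT2A, the methionine adenosyltransferase of non-hepatic cells, dropped from 24192 to 4912 (log2 -2.30, limma adjusted p = 3.52e-07; with the slide block adjusted p = 0.051). Its hepatic counterpart MAT1A rose from 291 to 422 (adjusted p = 0.0462; with the slide block 0.899). Of 22 genes tested in this list, 8 fell and 3 rose (median -0.32). TYMS, the thymidylate synthase, also counted among the S phase genes, fell by 0.90, and MTHFD2L and GAMT rose by 0.98 and 0.56. With the array median 12 fell and 1 rose, with spike-in RNA 11 fell and 0 rose, and with the slide block 1 fell and 0 rose.

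Among 18 TET cofactors and enzymes around 2-oxoglutarate, the substrate of the TETs, 8 fell and 2 rose (median -0.41). IDH1, the cytosolic isocitrate dehydrogenase, fell from 17278 to 8649.6, IDH3A, of the mitochondrial enzyme, from 972 to 493, and SLC23A2, which carries ascorbate into cells, from 504 to 286. All 3 were also called with the slide block (adjusted p = 0.0175, 0.00514 and 0.0499), as was SDHC. D2HGDH and OGT, the TET-binding glycosyltransferase, rose by 0.48 and 0.42 with the 75th percentile, and 0 of the 18 rose with the array median or spike-in RNA. The medium held ascorbic acid-2-phosphate at all times.

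Base excision repair fills the gap that TDG leaves. Of 15 genes, 4 fell and 1 rose (median -0.27), where 29.8% of all genes fell and 24.6% rose. Those that fell were UNG, the uracil glycosylase, from 51163 to 26365, APEX1, the endonuclease that cuts at the empty site, from 2472 to 1601, PARP1 from 33959 to 24019, and NEIL3 from 67.2 to 58.6. Of these APEX1 alone was also called with the slide block (adjusted p = 0.0216). NEIL1, another glycosylase, rose from 817 to 1236, and with spike-in RNA 10 of the 15 fell and 0 rose.

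Of 8 genes of the MBD and ZBTB families, 2 fell and 3 rose, against 29.8% and 24.6% of all genes. They were listed by family as possible readers of methylated CpGs, and whether each binds them was not tested. MBD2, a reader that joins the NuRD complex, fell from 14284 to 8925 and MBD1 from 2527 to 2123, whereas MBD5 rose from 107 to 229. ZBTB4 and MBD6 rose by 0.35 and 0.30, and with spike-in RNA 0 of the 8 rose. Of 12 writers and erasers of the H3K36 and H3K4 marks that the DNMT3 enzymes read, 4 fell, among them SETD2 (-0.69), NSD1 (-0.55) and KMT2D (-0.42). The demethylase KDM1B was well above background on 9 arrays, 0 of them early, and was at least 3.10-fold higher late. An "at least" fold sets the lowest detected signal of an array in place of a probe below background. Its slope was fitted partly through values below background, so that its p is not given. With the slide block 0 of the 8 and 0 of the 12 were called.

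The deaminase and germ-line lists had medians above that of all genes. Of 9 cytidine deaminases and GADD45 genes tested, 4 rose and 0 fell (median 0.82), all 4 of the APOBEC3 family of antiviral deaminases: APOBEC3B from 297 to 779, APOBEC3G from 220.2 to 484, APOBEC3C from 775 to 1157 and APOBEC3F from 519.6 to 754. APOBEC3G was also called with the slide block (adjusted p = 0.0311). With the array median 2 of the 9 rose, and with spike-in RNA 1 rose and 1 fell. GADD45G read 639 early and 3271 late without passing (adjusted p = 0.295).

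Of 20 germ-line genes, whose CpG island promoters are methylated in somatic cells, 10 rose and 4 fell (median 0.58). MAGEA4 rose from 55.4 to 151. TEX11 and SYCP3, both not well above background on any early array, were at least 2.96-fold and 2.44-fold higher late. Both are counted among the 10, although their slopes were fitted partly through values below background. PIWIL2, a partner of germ cell small RNAs, rose from 501 to 1061 and was called with the slide block (adjusted p = 0.0331). TEX14 fell from 213 to 23.0 (also called with the slide block, adjusted p = 0.0271), MAEL fell by 1.08 and TDRD6 fell by 0.96. The number that rose was 6 of 20 with the array median and 1 of 20 with spike-in RNA. These rises thus depend on the scaling, as did those over all probes (4678 and 1485 of 32113). Most of these genes were dim. DNA methylation itself was not measured.

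**Figure D3:**
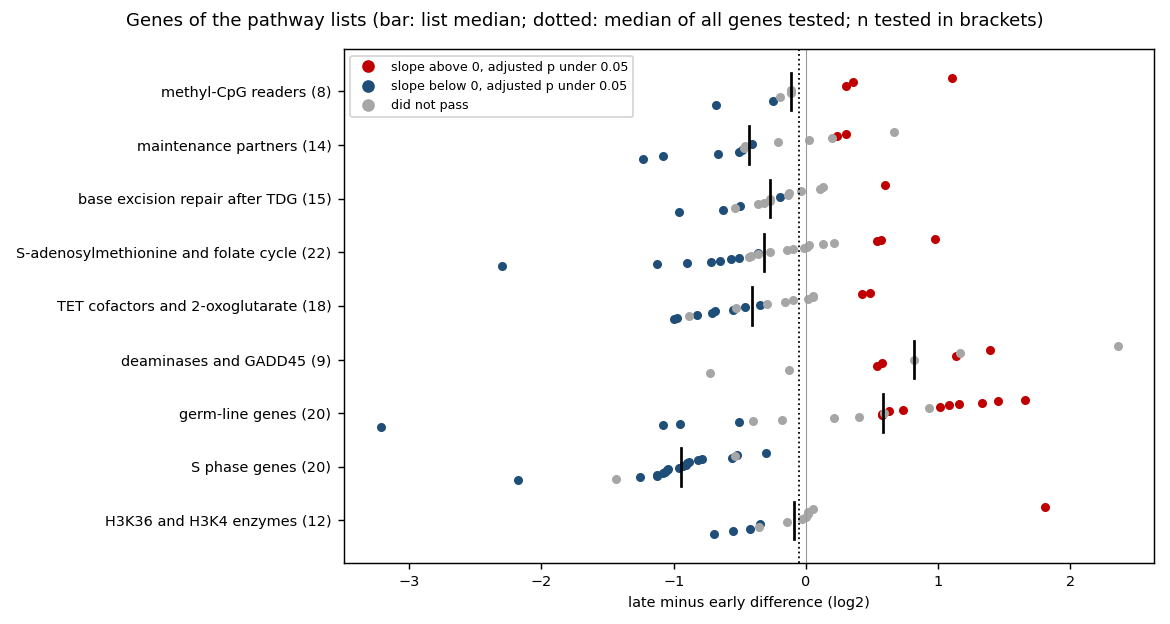
Each point is 1 gene of a list, placed by its late minus early difference (log2, 75th percentile scaling), red where it rose, blue where it fell and grey where the slope did not pass; black bars are list medians, the dotted line is the median of all genes tested, and the number tested is in brackets. S phase genes lie left of 0 in all 20 cases, and the deaminases and germ-line genes have medians of 0.82 and 0.58.

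Counts in the marker lists are likewise to be read against the 24.6% of all genes that rose and the 29.8% that fell. The 7 hESC markers examined stood well above background at every time point. POU5F1 (-0.32), LIN28A (-0.29) and ZFP42 (-0.84) fell and NANOG, SOX2, DPPA4 and SALL4 did not pass. The summed signal of the 7 was 524224 to 535016 early and 426905 to 446879 late. POU5F1 alone had a mean of 349263 early and 279830 late. Markers of other cells moved on the same arrays. Among 9 mesoderm and endoderm markers, MESP1 (1.80) and KDR (1.34) rose and 7 did not pass, the median difference of the list being -0.23. The summed signal of the 9 was 3911 to 4782 early and 7201 to 9158 late, of which KDR alone had a mean of 2364 early and 5969 late. Of 10 trophoblast and amnion markers 4 rose, HAND1, CGA, CGB3 and KRT7, and 2 fell, CDX2 and TFAP2C. The sums over the 10 were 8615 to 9656 early and 10356 to 14483 late, of which KRT7 alone had a mean of 7100 and 11104. CGA was well above background on 0 early and 2 late arrays, and was at least 2.27-fold higher late. PAX6 and OTX2 fell among 4 neuroectoderm markers, SOX1 and ZIC1 being above background on 0 arrays, with sums of 560.1 to 744 and 191 to 371. PAX6 was well above background on 0 late arrays. The slopes of CGA and PAX6, both in the counts, were thus fitted partly through values below background. Of 8 fibroblast markers, COL6A3 was above background on 0 arrays, COL3A1 and LUM on 1, DCN on 9 and PDGFRB on 17. COL1A1, COL1A2 and THY1 were on all 19. COL1A2 rose (0.37), PDGFRB fell (-0.92) and the other 3 tested did not pass. The sums over the 8 were 39360.0 to 42587 early and 29953 to 47183 late, of which THY1 alone had a mean of 28028 and 23521. With the slide block CGB3 was called (adjusted p = 0.0397), and 0 of the 7 hESC, 0 of the 9 mesoderm and endoderm, 0 of the 2 neuroectoderm and 0 of the 5 fibroblast markers tested were. Their part in the changes of the methylation enzymes was not tested.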

How the data were processed

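Total RNA of 19 samples, 1 per time point, was labelled with Cy3 and hybridized to one-colour Agilent arrays. The authors deposited the Feature Extraction 10.10.1.1 output, in which each spot has a processed intensity (local background subtracted, spatial trend removed, no scaling between arrays), and flags coded 0 or 1 as other values. They also deposited a table of intensities, each column of which equals the processed intensity times 1 factor per array.

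Flagged spots (0.632%) were left out and none was saturated. Copies of a probe were averaged, and log2 intensity was scaled by subtracting the array's 75th percentile. Probes were named through RefSeq accessions in GRCh38.p14 (28170 of 50683 probes, 20499 genes), and a gene was represented by its probe with the highest mean. Slopes on hours came from limma 3.58.1 (R 4.3.3), run on the 32113 probes that 5 or more arrays showed well above background, with Benjamini-Hochberg adjustment. Since each group is 1 array, p-values measure the scatter of single samples around a line. Differences between probes or genes were tested with 100000 permutations of the arrays (two-sided, Python 3.11.15, scipy 1.17.1). The arrays were permuted across slides, so these p-values do not separate time from slide, and differences with the slide removed carry no test. Of 8 planned pairs of genes 6 could be run, TET3 having no probe. The fit was tested on simulated data before use.

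Alternatives were the array median, spike-in RNA (7 of 10 levels), normexp (offset 50, on median pixel intensity) followed by quantile normalization, the deposited table, no filter or a filter on all 19 arrays, log2 hours, a cubic, 3 to 54 h, the slide as a block, the mean of a gene's probes, 72 minus 3 h, and each array left out. The genes, the 9 pathway lists and 5 marker lists were chosen with earlier results of these data known. Beyond the enzymes, the text names, per list, the 3 largest rises and 3 largest falls that passed, and the 3 genes most correlated with each enzyme; CDCA7, SDHC, NEIL3, APOBEC3F, PIWIL2, GADD45G and the markers were named after their values were seen. A gene that this rule selects is not reported here. Promoter sequences are from RefSeq.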

Additional observations from a re-analysis of the deposited data

How the results depend on the processing

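With the array median, spike-in RNA, normexp with quantile normalization, or the slide as a block, 0 of the 8 enzymes rose instead of 1. The number that fell went from 5 to 3 with the slide block, to 4 with normexp and quantile normalization, and to 6 with the array median, with spike-in RNA and over 3 to 54 h. Over all probes, 9927 rose and 7207 fell, against 4678 and 11117 with the array median, 1485 and 11188 with spike-in RNA, and 1513 and 1434 with the slide block. Leaving out each array in turn gave 0 to 1 rising and 5 to 5 falling enzymes, 9301 to 10287 rising and 6734 to 7244 falling probes, and the loss of TET2 came without the 66 h array. The cause of these shifts was not tested. Called results that changed sign were the TET2 slope with the slide block (-0.00254), the TET2 late minus early difference with spike-in RNA (-0.0906), and, with the slide removed, the differences between the UHRF1 probes (-0.000383), between the TDG probes (0.000536) and between TET1 and TET2 (0.00173). Uncalled values changed sign too, among them the slopes of TET1 (0.00195 with normexp and quantile normalization, 0.00314 as the mean of its probes) and DNMT3L (-0.00478 with spike-in RNA, -0.0145 over 3 to 54 h). The calls of DNMT3A, DNMT3B and TDG kept their direction and their side of the threshold under all alternatives to the slope run. No paired analysis was possible because no time point was sampled more than once. The number of arrays limits the precision, and DNMT3L and TET2, whose scanner error was 11.4% of the signal at the median, are the least certain.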
